A study of Rattus norvegicus with 53 samples.

Results

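The comparison described here set the pool of hour 2 of insulin-treated rat L6 myotubes against the pool of hour 1 of the same culture. It used 6 of the 53 arrays, the 3 titled as insulin of hour 2 and the 3 titled as insulin of hour 1, which were matched by the letter a, b or c of the repeat. L6 is an established cell line from rat skeletal muscle, whose myoblasts fuse to multinucleate myotubes when serum is lowered. RNA was measured on Affymetrix rat expression arrays, and the values are log2 levels made by the authors with RMA, so that a difference of 1 is a change of 2-fold.

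Both groups were L6 cells that had been differentiated in medium with little serum, kept in serum-free DMEM for 8 h and then given serum-free DMEM with 20 nM insulin. The hour 1 pool combined the harvests of 20, 40 and 60 min after insulin, and the hour 2 pool those of 80, 100 and 120 min. Each harvest came from plates of its own, so the 2 pools of a letter share the day and the preparation but not the plates. The control plates stood in DMEM with 0 nM insulin and were pooled in the same way, and they are used here for comparison (6 arrays, 3 of each hour). The protocol states a change of medium for the insulin plates after time 0 and does not say plainly whether the control plates had one, so that insulin and a change of medium cannot be told apart in a difference between the cultures. All groups were 1 cell line, the 3 letters were whole repeats on different days, and an array cannot show changes within its hour. The array medians of the series lay between 6.3 and 6.37. The labels call the cells myoblasts, and marker genes of both stages were among the genes measured. Only genes with a probe set among the brighter ones that were tested count as measured. These were 25 of 29 listed markers of myotubes and 6 of 10 of undifferentiated myoblasts. Myosin heavy chain Myh1, a myotube gene, was at 10.87, 10.89 and 11.44 in hour 1 and at 10.45, 11.05 and 11.11 in hour 2 (letters a, b and c). The mean level of the 25 measured markers of myotubes was between 9.18 and 10.2 in hour 1 and between 9.08 and 10.2 in hour 2. For the 6 measured markers of undifferentiated myoblasts it was between 10.3 and 10.7 in hour 1 and between 10.5 and 10.9 in hour 2. These means come from different probe sets, so they do not give the share of either stage.

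Insulin binds its receptor on muscle cells, which phosphorylates the substrates Irs1 and Irs2. From there one branch runs through PI3-kinase and Akt, which keeps FOXO transcription factors out of the nucleus, and another runs through Ras and ERK, which switches on immediate early genes. Immediate early genes are transcribed within minutes of a stimulus without new protein synthesis, and many encode transcription factors or feedback inhibitors, such as the Dusp phosphatases and Sprouty proteins, that shut the signal off again. Their messages are typically short-lived.

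From hour 1 to hour 2, 14 of 11577 genes passed the test (limma over all 53 arrays, with the letter of each culture as a block, Benjamini-Hochberg adjusted p below 0.05), which is 0.121% of the genes tested. Of these, 5 rose (0.0432% of the genes tested): Klf10, Hes1, Ddit4, Nfkbia and Mylip. The other 9 fell (0.0777% of the genes tested): Dusp1, Ccn1, Spry2, Sgk1, Cited2, Edn1, Amotl2, Irs2 and Ccn2. The median change over all genes tested was 0.01 on the log2 scale, the median size of a change was 0.048, and 28 genes changed by more than 0.5. In 13 of the 14 genes the arrays of the 2 hours did not overlap, against 182 genes (1.57%) that were higher and 184 (1.59%) that were lower without overlap among all genes tested. The 14 were picked by the difference between these same arrays, so the lack of overlap is a description and not separate support.

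Stretches of 5 RefSeq promoters (build GRCr8) are printed because they belong to genes that fell or rose here and hold a match to the site of a factor linked to growth signals, which is in capitals. They read 5′ to 3′ on the strand of the gene, with 40 bases on each side of the matches or up to the start site.
Dusp1 (fell), chr10:17184689-17184791, + strand: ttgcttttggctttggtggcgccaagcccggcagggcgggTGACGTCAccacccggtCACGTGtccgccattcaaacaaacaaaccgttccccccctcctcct
Cited2 (fell), chr1:14132103-14132188, + strand: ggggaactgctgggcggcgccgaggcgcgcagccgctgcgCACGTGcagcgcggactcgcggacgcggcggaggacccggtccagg
Edn1 (fell), chr17:22666779-22666865, - strand: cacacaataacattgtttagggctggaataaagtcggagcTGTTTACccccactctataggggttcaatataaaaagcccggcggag
Ccn2 (fell), chr1:22624657-22624746, - strand: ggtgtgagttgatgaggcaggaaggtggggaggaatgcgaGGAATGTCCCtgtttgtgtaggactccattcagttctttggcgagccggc
Nfkbia (rose), chr6:78597073-78597143, - strand: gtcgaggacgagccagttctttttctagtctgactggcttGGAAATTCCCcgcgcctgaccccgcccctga

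The Dusp1 promoter holds a full cyclic AMP response element, TGACGTCA, from base -124 to base -117 of the start site, and an E-box, CACGTG, from base -107 to base -102. The E-box also stands in the Cited2 promoter. The forkhead site TGTTTAC, the kind that FOXO factors bind, stands in the Edn1 promoter, and the NF-kappaB site stands in those of Nfkbia and Ccn2 and, across the start site, of Hes1 (the latter 3 matches are on the opposite strand). RefSeq promoters, from 250 bases before to 50 after the start, were at hand for 12 of the 14 genes, with no entry for Irs2 and Klf10. Among all 33469 promoters of that table, searched on both strands, the cyclic AMP response element was in 1.83%, the E-box in 6.42%, the forkhead site in 3.78% and the NF-kappaB site in 4.18%, and among the 9645 promoters of genes tested here these shares were 3.18%, 9.49%, 2.29% and 4.87%. The CArG box of serum response factor (1.64% of all promoters and 1.32% of those of tested genes), the AP-1 site TGANTCA (7.33% and 5.01%), the Egr site GCGGGGGCG (2.73% and 5.13%) and the composite site of C/EBP and ATF factors TGATGNAA (3.98% and 2.01%) had no match in the 12. A match is a match of letters, and the arrays did not measure binding.

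The plot of each array of the 14 genes shows the levels on which the test rests.

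**Figure D1:**
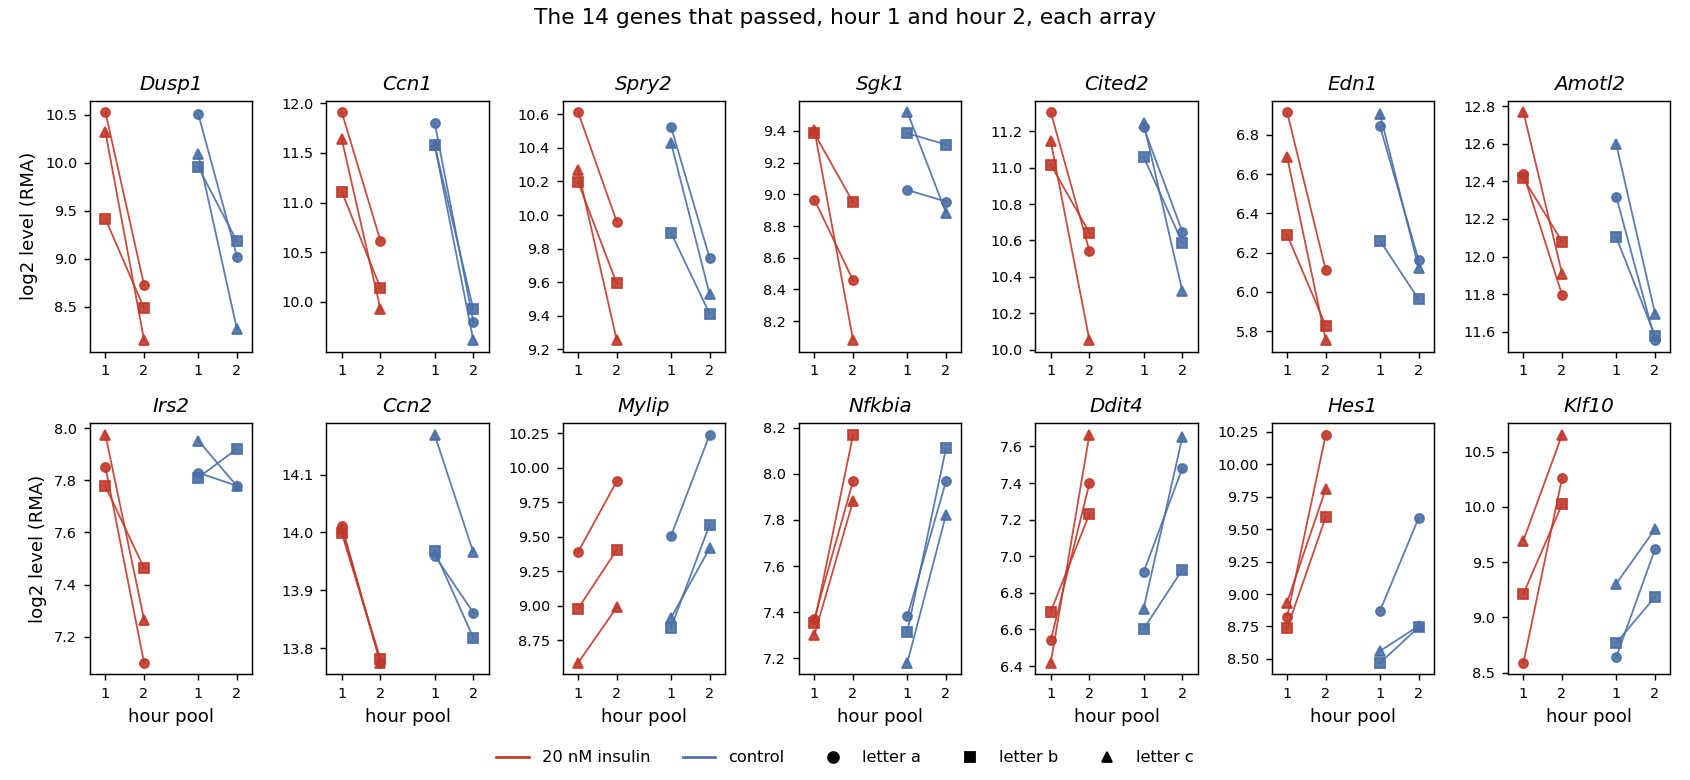
Log2 RMA level (vertical axis, its range set for each gene) of the 14 genes that passed in the insulin culture, in the pools of hour 1 and hour 2. Red lines are the insulin culture and blue lines the control culture, each line joins the 2 arrays of a letter, and the symbol gives the letter. All red lines of a panel run the same way, and only the panel of Mylip has red arrays of the 2 hours that overlap.

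Of 14 measured feedback inhibitors of ERK and MAPK signaling, 2 fell, 0 rose and 12 did not pass, and the median change was -0.20, against 0.01 over all genes. In 7 of the 14 the level was lower in hour 2 in every letter, as in 1326 genes (11.5%) of all tested, and 0 were higher in every letter. In the control culture 4 of these 14 genes fell, 8 were lower in every letter, and the median change was -0.32. Dusp1 (probe set 1368146_at), a dual-specificity phosphatase that inactivates MAP kinases, was at 10.53, 9.41 and 10.32 in letters a, b and c of hour 1 and at 8.72, 8.48 and 8.15 in hour 2. It fell by 1.63 on the log2 scale (SE 0.21, adjusted p = 6.09e-05 by limma), or 3.1-fold, the largest change of any gene tested. Letter b started lower than the others in hour 1, and its fall was the smallest of the 3. Spry2 (1374864_at), a Sprouty inhibitor of receptor tyrosine kinase signaling, stood at 10.61, 10.20 and 10.27 in hour 1 and at 9.96, 9.59 and 9.25 in hour 2, a fall of 0.76 (SE 0.13, adjusted p = 0.00225 by limma). The highest array of hour 2 was below the lowest of hour 1. Another probe set of Dusp1, dimmer than the one tested, changed by -1.06 and did not pass (adjusted p = 0.200 by limma). Dusp6, a phosphatase specific for ERK, missed the threshold narrowly: its changes were -0.81, -1.09 and -1.57 in the 3 letters, with a mean of -1.16 and an adjusted p of 0.0550 by limma. It is named, like the other members of lists that are described as not passing without being among the 73 genes of the naming rule, after its values were seen.

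Of the 30 measured immediate early transcription factors and related genes, 1 rose, 0 fell and 29 did not pass. Their median change was -0.08. In every letter 11 of them were lower (36.7%) and 4 higher (13.3%), against 11.5% and 15% of all genes tested. The riser was Klf10 (1368650_at), a Kruppel-like factor known as a TGF-beta-inducible early gene, with 8.59, 9.21 and 9.69 in hour 1 and 10.26, 10.02 and 10.65 in hour 2. It rose by 1.15 (SE 0.17, adjusted p = 0.000366 by limma), or 2.21-fold. Every array of hour 2 was above every array of hour 1, and letter a, lowest in hour 1, moved most. Egr1, a zinc-finger factor that is a classic target of ERK, had nearly the same level in the 3 letters of hour 1 (11.11, 11.10 and 11.17) and 10.47, 10.49 and 9.58 in hour 2. Its groups did not overlap, but letter c moved far more than the others, and the mean change of -0.95 had an SE of 0.33 and an adjusted p of 1 by limma. Fos differed by 0.06 and Junb by -0.01, and Myc, at -0.29, was higher in letter a and lower in the other letters. The value of Fos turns on its probe set, since with the mean of all its probe sets it was -0.48 (adjusted p = 0.452 by limma).

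Among 13 measured Kruppel-like factors, Klf10 was the 1 that rose, 0 fell and 12 did not pass. The median change was 0.01. In this list 5 members (38.5%) were higher in every letter, as in 1737 genes (15%) of all tested. The other way, 2 members (15.4%) were lower in every letter, against 11.5% of all tested. Klf3 (0.39), Klf11 (0.35) and Klf2 (0.33) had positive changes and Klf6 a negative one (-0.41), with adjusted p from limma of 0.108, 0.236, 1.0 and 0.108. Klf15, which is linked to amino acid breakdown in muscle, differed by -0.06.

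Hes1 (1387036_at), a transcriptional repressor downstream of Notch that restrains differentiation, was the other gene that about doubled. Its levels were 8.82, 8.73 and 8.93 in hour 1 and 10.23, 9.59 and 9.81 in hour 2, a rise of 1.05 (SE 0.20, adjusted p = 0.0109 by limma) or 2.07-fold. The arrays of hour 1 lay close together, and all of hour 2 were well above them. Hes1 was the only 1 of the 6 measured markers of undifferentiated myoblasts that passed. The other 5 did not pass, and the lowest change in that list was 0.00056 and the median 0.0068.

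Among 21 measured targets of serum response factor and YAP, transcription programs tied to the cytoskeleton, 3 fell, 0 rose and 18 did not pass. The median change was -0.04. In every letter 7 were lower (33.3%) and 2 higher (9.5%), against 11.5% and 15% of all genes tested. Ccn1 (1368290_at), a secreted matricellular protein, stood at 11.91, 11.11 and 11.64 in hour 1 and at 10.62, 10.14 and 9.93 in hour 2. It fell by 1.33 (SE 0.26, adjusted p = 0.0148 by limma), or 2.51-fold, and its groups did not overlap. Amotl2 (1389546_at), which binds YAP and holds it in the cytoplasm, was at 12.44, 12.42 and 12.77 in hour 1 and at 11.79, 12.08 and 11.91 in hour 2, a fall of 0.61 (SE 0.096, adjusted p = 0.000824 by limma). All arrays of hour 2 were lower, and letter b again moved least. Ccn2 (1367631_at), the connective tissue growth factor, had the tightest replicates, with 14.01, 14.00 and 14.01 in hour 1 and 13.77, 13.78 and 13.77 in hour 2. It fell by only 0.23 (SE 0.047, adjusted p = 0.0301 by limma), or 1.17-fold. Ccn2 no longer passed when each array was centred on its median (adjusted p = 0.115 by limma), or with a variance that does not follow the level (adjusted p = 0.277 by limma).

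The insulin receptor substrate Irs2 (1371091_at), which couples the receptor to PI3-kinase and whose gene is a target of FOXO factors, was at 7.85, 7.78 and 7.98 in hour 1 and at 7.10, 7.46 and 7.27 in hour 2. It fell by 0.59 (SE 0.11, adjusted p = 0.0109 by limma), or 1.51-fold. All 3 arrays of hour 2 were below those of hour 1, with letter b nearest. Irs2 was the 1 member of 26 measured genes of the insulin receptor and proximal signaling that passed. In that list 25 did not pass, and the median change was -0.02. In every letter 5 were higher and 5 lower (19.2% each), against 15% and 11.5% of all genes tested. The change was 0.01 for the insulin receptor Insr and 0.02 for Irs1.

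FOXO factors and their targets had 1 riser, 2 fallers and 26 that did not pass among 29 measured, with a median change of -0.02. Here 4 were higher (13.8%) and 6 lower (20.7%) in every letter, against 15% and 11.5% of all genes tested. The 2 that fell were Irs2 and Cited2, a transcriptional co-regulator that competes with HIF-1 for the coactivators p300 and CBP. Cited2 (1367602_at) was at 11.31, 11.02 and 11.15 in hour 1 and at 10.54, 10.64 and 10.05 in hour 2, a fall of 0.75 (SE 0.12, adjusted p = 0.000824 by limma). Its groups did not overlap. A dimmer probe set of the gene gave -0.67 and did not pass (adjusted p = 1.0 by limma). The riser was Ddit4 (1368025_at), also called Redd1, an inhibitor of mTORC1 signaling, with 6.54, 6.70 and 6.42 in hour 1 and 7.40, 7.23 and 7.66 in hour 2. It rose by 0.88 (SE 0.18, adjusted p = 0.0322 by limma), or 1.84-fold, and letter c, lowest in hour 1, was highest in hour 2. Ddit4 and the fallen members thus moved in opposite directions within the list. Pdk4, which restrains pyruvate dehydrogenase, differed by 0.37, with 5.20, 5.37 and 5.03 in hour 1 and 5.23, 5.65 and 5.82 in hour 2, and did not pass. Ccng2, an unusual cyclin induced by FOXO, differed by -0.12.

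Sgk1 (1367802_at), a kinase related to Akt that is activated by PI3-kinase signaling, was at 8.97, 9.38 and 9.41 in hour 1 and at 8.46, 8.95 and 8.08 in hour 2. It fell by 0.76 (SE 0.14, adjusted p = 0.00796 by limma), or 1.69-fold. The fall was 0.51, 0.43 and 1.33 on the log2 scale in letters a, b and c, so that letter c moved much farther than the others. Without letter c the change was -0.47 and did not pass (adjusted p = 1.0 by limma). Endothelin Edn1 (1369519_at), a secreted peptide, was at 6.92, 6.29 and 6.69 in hour 1 and at 6.11, 5.83 and 5.75 in hour 2, a fall of 0.73 (SE 0.13, adjusted p = 0.00796 by limma). Its arrays did not overlap between the hours, and letter b was the lowest of hour 1.

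The NF-kappaB inhibitor Nfkbia (1389538_at), itself a target of NF-kappaB, was the 1 riser among 19 measured NF-kappaB regulators and chemokines, of which 0 fell and 18 did not pass. It was at 7.37, 7.35 and 7.30 in hour 1 and at 7.97, 8.17 and 7.88 in hour 2, a rise of 0.67 (SE 0.096, adjusted p = 0.000316 by limma) or 1.59-fold. The spread within each hour was small against the gap. The list as a whole had a median change of -0.03, close to 0. In it 8 members (42.1%) were lower and 2 (10.5%) higher in every letter, against 11.5% and 15% of all genes tested. The chemokine Cxcl1 had changes of -1.13, -1.02 and -1.46 in the letters, with a mean of -1.20, and missed the threshold (adjusted p = 0.0515 by limma). Ptgs2, the inducible cyclooxygenase, had a mean change of -0.89 (adjusted p = 0.225 by limma). The remaining riser was Mylip (1389474_at), a ubiquitin ligase that marks lipoprotein receptors for breakdown. It was at 9.39, 8.98 and 8.59 in hour 1 and at 9.90, 9.41 and 8.99 in hour 2, a rise of 0.45 (SE 0.091, adjusted p = 0.0284 by limma). The groups of Mylip overlapped because the letters differed in level, but the rise was nearly equal in all letters, at 0.52, 0.43 and 0.40.

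The strip plot of 16 gene lists sets these groups beside those in which little moved.

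**Figure D2:**
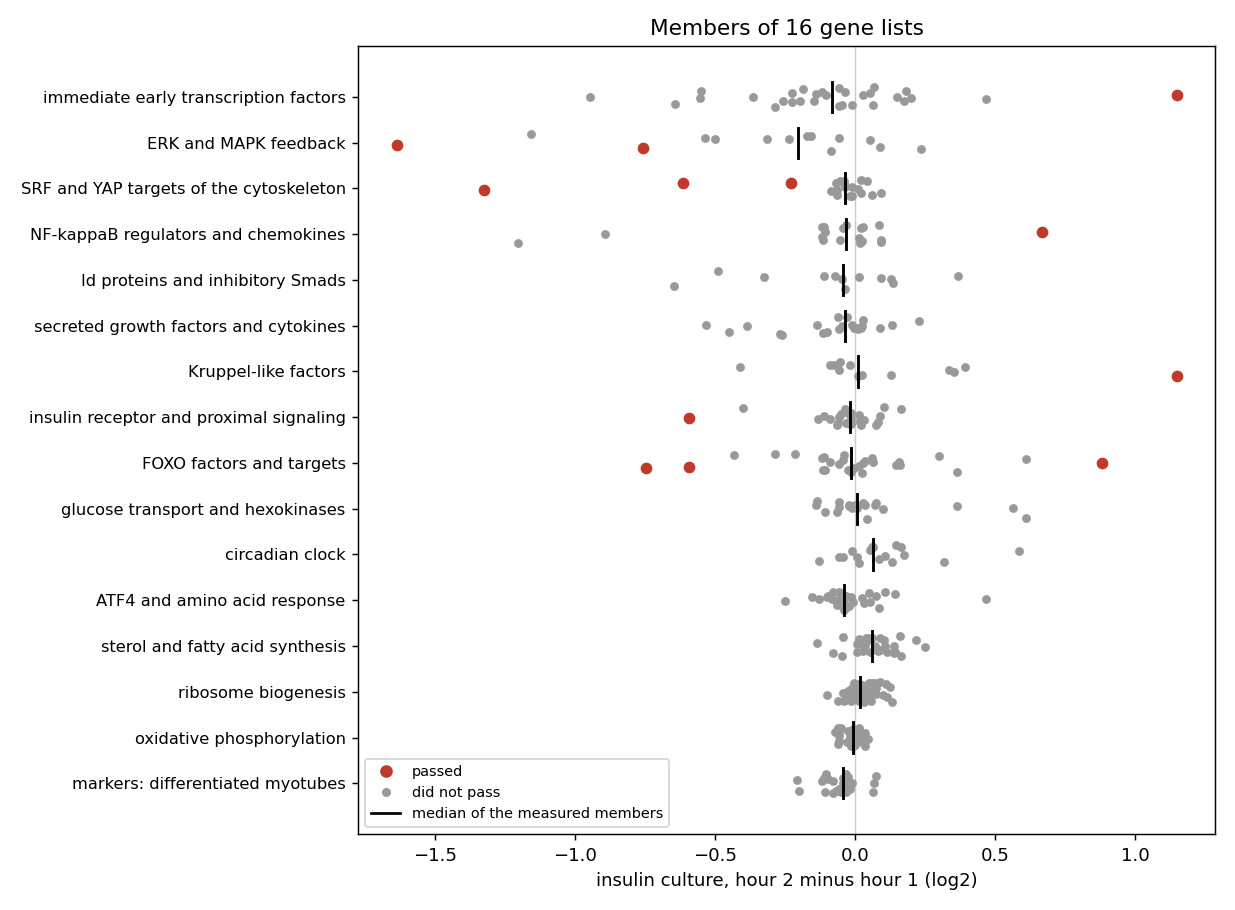
Change from hour 1 to hour 2 in the insulin culture (horizontal axis, log2) of each measured member of 16 gene lists. Red points passed, grey points did not, the black bar is the median of the list, and points are spread vertically only to separate them. The median is -0.20 for ERK and MAPK feedback and lies between -0.08 and 0.06 for the other lists. Most of the few red points stand far from the rest of their lists.

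In the metabolic and biosynthetic lists 0 members passed. Sterol and fatty acid synthesis (29 measured) had a median of 0.06, with the sterol enzymes Dhcr7 at 0.25 and Mvd at 0.22. Ribosome biogenesis (54 measured) had a median of 0.02 and a range from -0.10 to 0.13, with Utp15 and Rrs1 both at 0.13. Oxidative phosphorylation (35 measured) lay between -0.07 and 0.05, with the respiratory chain subunits Uqcrh at -0.07 and Ndufa1 at -0.06, and cytosolic ribosomal proteins (25 measured) lay between -0.10 and 0.19, with Rpl30 at 0.19 and Rpl22 at -0.10.

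Glucose transport and hexokinases (21 measured) had a median of 0.01. The largest values were those of the arrestin relatives Txnip, which restrains glucose uptake, and Arrdc4, at 0.61 and 0.56 (adjusted p = 0.161 and 0.484 by limma). Txnip was higher in hour 2 in every letter, with 9.84, 10.16 and 10.51 in hour 1 and 10.31, 10.59 and 11.43 in hour 2, though its groups overlapped. The glucose transporters Slc2a1 and Slc2a4 differed by 0.04 and 0.03, and hexokinase Hk2 by -0.14.

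Among circadian clock genes (17 measured, median 0.06), 6 were higher (35.3%) and 1 lower (5.9%) in every letter. Over all genes tested these shares were 15% and 11.5%. Bhlhe41, a repressor of the clock, differed by 0.59 (adjusted p = 0.111 by limma) and Nr1d1, a nuclear receptor that represses Bmal1, by 0.32. In the list of ATF4 and the amino acid response (31 measured, median -0.04), the stress factor Atf3 was at 0.47 and Ppp1r15a, which helps to restart translation, at -0.25. In that of translation initiation (30 measured, median 0.04, 11 higher and 2 lower in every letter), Eef2k, the kinase that slows elongation, was at 0.20 and Eif4ebp2 at -0.08. None of these passed.

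Id proteins and inhibitory Smads (12 measured, median -0.04) included members with wide differences between letters. Id3, which blocks myogenic basic helix-loop-helix factors, was at 9.04, 11.17 and 11.48 in hour 1 and at 8.84, 10.42 and 10.49 in hour 2, so letter a was far below the others in both hours, and the mean change of -0.65 did not pass (SE 0.38, adjusted p = 1 by limma). Id1 was also low in letter a, with 7.68 against 9.23 and 9.79 in hour 1, but its changes differed in sign, at 0.13, -0.47 and -1.12 (letters a, b and c), with a mean of -0.49. Secreted growth factors and cytokines (22 measured, median -0.04) were led by Hbegf at -0.53 and the activin subunit Inhba at -0.45, neither of which passed.

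For the other lists with 0 members that passed, the 2 most extreme values were the following. They were 0.30 for Mxd3 and -0.29 for Myc in the Myc network (21 measured), -0.29 for Ankrd37 and -0.22 for Epas1 in the hypoxia response (23 measured), and -0.23 for Cdk6 and 0.16 for Cdkn2c among cyclins and Cdk inhibitors (21 measured, where Cdkn1a was at 0.13). They were 0.19 for Ppargc1b and -0.13 for Hdac4 among myogenic and Mef2 factors (17 measured), 0.17 for Calr and -0.17 for Hspa1a among chaperones (20 measured), and -0.21 for Pias4 and 0.21 for Pias3 among inhibitors of cytokine signaling (11 measured). Autophagy (25 measured) had Ulk1 at -0.14 and Gabarapl1 at -0.12, and the list of atrophy and ubiquitin ligase genes (12 measured) had Traf6 at 0.11 and Fbxo30 at 0.09.

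Of the 7 lists of cell type markers, the list of undifferentiated myoblasts described above had 1 member that passed, Hes1, and the other lists had 0. Among 25 markers of myotubes the median change was -0.04, 8 were lower (32%, against 11.5% of all genes) and 1 was higher in every letter, and the extremes were Ttn at -0.21 and Myh1 at -0.20. Markers of proliferating cells (18 measured) had a median of 0.03, with Mcm6 at 0.12 and Mcm2 at 0.11, and those of fibroblasts (10 measured) a median of 0.02, with Fbln1 at 0.15 and Postn at 0.08. The mean over 6 macrophage markers was between 6.05 and 6.23 in hour 1 and between 6.12 and 6.26 in hour 2, with Cd14 at a change of 0.13 and Itgam at 0.10. Of the endothelial markers only Erg was measured (change 0.04), and of the adipocyte markers Cfd and Lpl (0.04 and 0.02). A change in the number of cells of a type and a change in RNA per cell cannot be told apart in such samples.

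The same step of time was also measured in the control plates, to set the change with insulin beside the change without it. In the control culture 24 genes passed between hour 1 and hour 2 (0.207% of the genes tested), 9 higher (0.0777%) and 15 lower (0.13%). Of the 14 genes of the insulin culture, 7 passed in the control culture too, 50% of the insulin calls and 29.2% of the control calls: Dusp1, Ccn1, Spry2, Cited2, Amotl2, Nfkbia and Mylip. The cultures share no array, but they share the day of each letter. The control mean had the sign of the insulin mean in all 14 genes, and in 13 of them every control letter had that sign, with Irs2 the exception (over all genes, 8.88% were lower and 15.7% higher in every control letter). Nfkbia changed by 0.67 in both cultures, Spry2 by -0.72 in control against -0.76 with insulin, and Dusp1 by -1.36 against -1.63. Amotl2 changed by -0.73 against -0.61, Cited2 by -0.66 against -0.75, Ccn1 by -1.88 against -1.33 and Mylip by 0.66 against 0.45. Of these 7 genes, the change with insulin was smaller in size than that in control in Ccn1, Amotl2 and Mylip and larger in Dusp1, Spry2 and Cited2, with Nfkbia nearly equal in both.

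**Figure D3:**
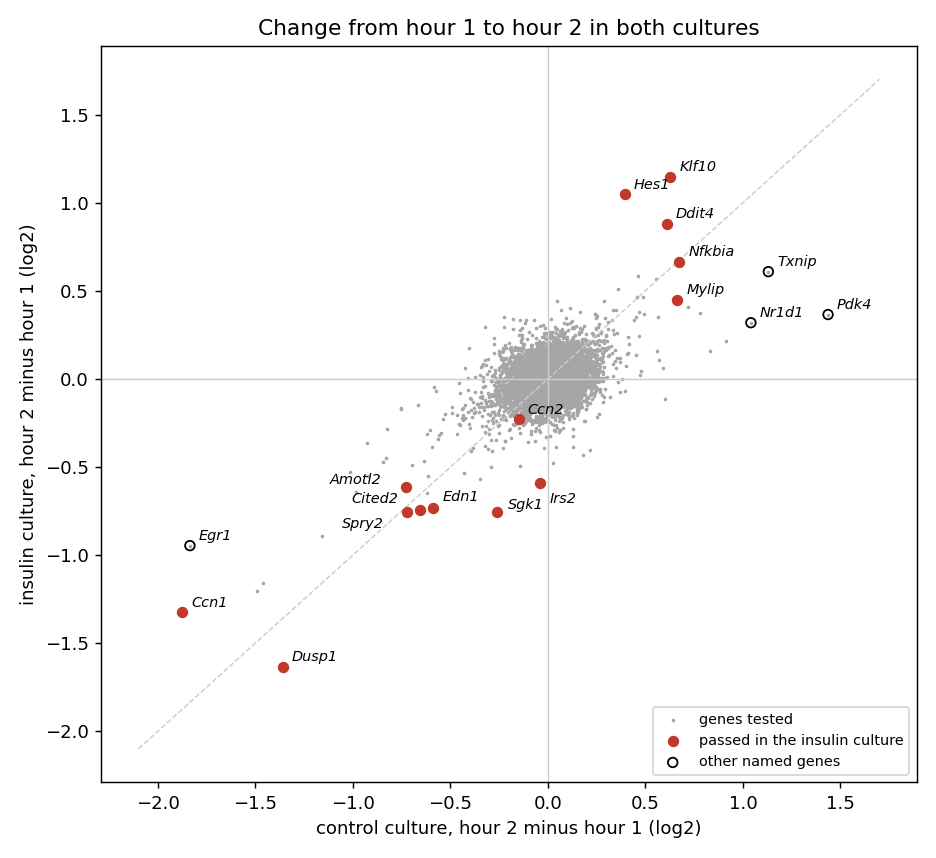
Change from hour 1 to hour 2 (log2) of the 11577 genes tested, in the control culture (horizontal axis) and in the insulin culture (vertical axis), each the mean of 3 letters. Red points passed in the insulin culture, open circles are Egr1, Pdk4, Nr1d1 and Txnip, and the dashed line marks equal change. Dusp1 and Ccn1 lie low in both cultures, whereas Irs2 lies at -0.59 with insulin and -0.04 in control.

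The remaining 7 genes that passed with insulin did not pass in control: Klf10 (1.15 with insulin, 0.63 in control), Hes1 (1.05 and 0.40), Ddit4 (0.88 and 0.61), Sgk1 (-0.76 and -0.26), Edn1 (-0.73 and -0.59), Irs2 (-0.59 and -0.04) and Ccn2 (-0.23 and -0.15). Whether a change differed between the cultures was tested on the insulin minus control differences within each letter and hour. By that test (limma on 26 differences) 0 genes passed, 0% of the genes tested, while 194 genes (1.68%) had an unadjusted p below 0.05. Hes1 came nearest, with an insulin change that exceeded the control change by 0.65 (95% interval 0.42 to 0.89, adjusted p = 0.201 by limma). For Klf10 the excess was 0.52 (0.16 to 0.88), for Irs2 -0.55 (-0.86 to -0.24) and for Sgk1 -0.50 (-0.77 to -0.23), each with an adjusted p of 1 by limma. For Nfkbia the difference was -0.01 (-0.26 to 0.25) and for Spry2 -0.03 (-0.33 to 0.26). These intervals, and those of the next paragraph, are for 1 gene at a time and are not adjusted for the number of genes tested. One that leaves out 0 therefore does not establish a difference between the cultures.

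The largest differences between the cultures were in genes that did not pass in the insulin culture. Pdk4 stood at 5.59, 4.54 and 5.00 in hour 1 of the control culture and at 6.52, 6.27 and 6.66 in its hour 2, a rise of 1.44 (adjusted p = 0.00274 by limma), against 0.37 with insulin, and the difference was -1.07 (-1.54 to -0.60, adjusted p = 1 by limma). Every control array of hour 2 was above every insulin array of that hour. Egr1 fell by 1.84 in control (adjusted p = 0.00308 by limma), to 9.19, 9.26 and 9.13, against -0.95 with insulin, a difference of 0.89 (0.35 to 1.43). Nr1d1 rose by 1.04 in control (adjusted p = 0.000453 by limma) against 0.32 with insulin, a difference of -0.72 (-1.26 to -0.19). When only the 6 differences of hours 1 and 2 were fitted, 12 genes passed, among them Pdk4, Egr1, Hes1, Klf10, Ccn1, Txnip, Ccng2 and Inhba but not Irs2, Sgk1 or Nr1d1.

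Over the whole course the 9 genes that fell had in common that their mean in hour 1 was above that of time 0 of the insulin culture and their mean in hour 2 below it. Picking genes by their fall favours such an order, and its share over all genes was not computed. The control culture had the same order, apart from Amotl2 and Irs2. Amotl2 differed from control time 0 by -0.05 in hour 1, and Irs2 by 0.07 in hour 2. Time 0 was before insulin in both cultures, yet its means differed. They were 9.39 and 9.75 for Dusp1 and 7.82 and 7.75 for Irs2 (insulin and control culture). In the insulin culture the excess of hour 1 over time 0 ran from 0.05 in Irs2, where the SD at time 0 was 0.18, to 0.70 in Dusp1, where it was 0.15. Dusp1 was at 9.39 at time 0, 10.09 in hour 1, 8.45 in hour 2 and 8.18 in hour 8, and Spry2 was at 10.12, 10.36, 9.60 and 9.44. Irs2 was at 7.82 at time 0, 7.87 in hour 1 and 7.28 in hour 2, and its means of hours 3 to 8 lay between 6.96 and 7.14. Sgk1 was at 9.14, 9.25 and 8.50 in the same pools, with 8.39 in hour 8. In these 4 genes the means of hours 2 to 8 all lay below that of time 0. Ccn1 went up again after hour 2, with 10.23 in hour 2, 10.99 in hour 4 and 10.19 in hour 8.

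The 5 risers were all above time 0 in hour 2, which picking genes by their rise also favours, and only Mylip was below it in hour 1. In the control culture all 5 were also above time 0 in hour 2, and Klf10, Hes1 and Mylip were below it in hour 1. With insulin, Hes1 was at 8.52 at time 0, 8.83 in hour 1, 9.88 in hour 2 and 8.62 in hour 3, and Klf10 at 9.13, 9.17, 10.31 and 9.62, with 9.14 in hour 4. Nfkbia went from 7.34 in hour 1 to 8.01 in hour 2 and 7.51 in hour 4. The highest mean of these 3 genes over the course was that of hour 2. Ddit4 was at 6.34 at time 0 and at 7.43 in hour 2, went on to 7.85 in hour 3 and was at 7.50 in hour 8. These levels at other hours are a description and were not tested here.

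**Figure D4:**
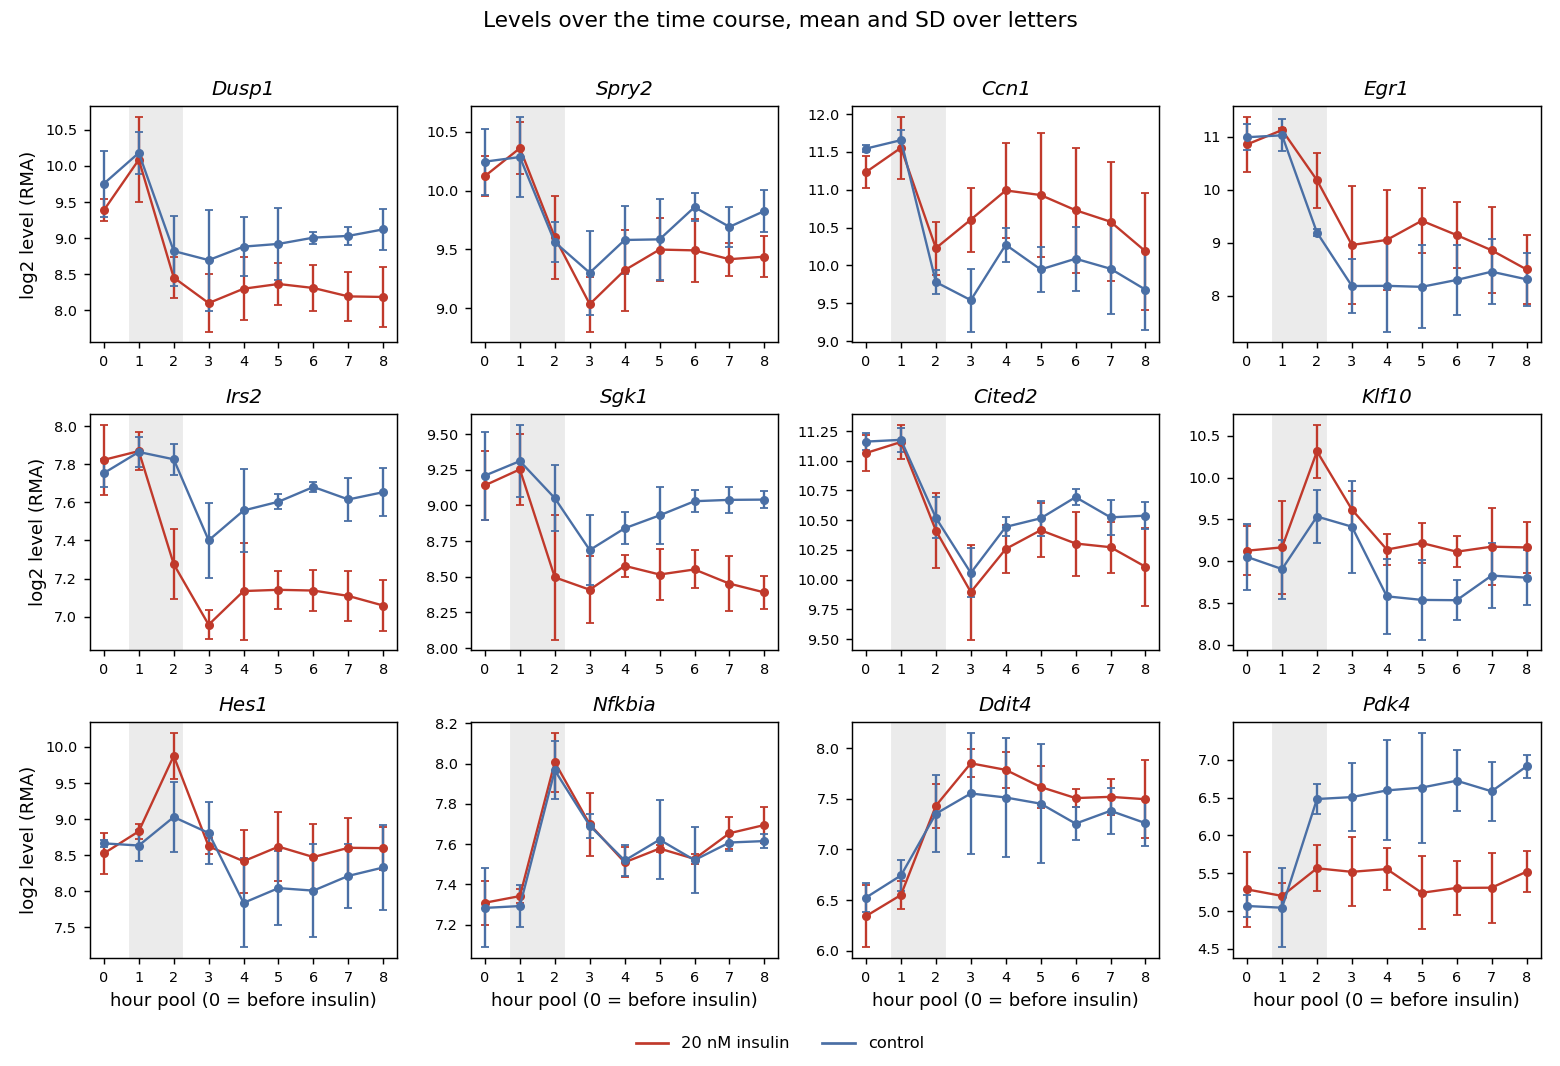
Mean log2 RMA level (vertical axis, its range set for each gene) of 12 genes from time 0 to hour 8 in the insulin culture (red) and the control culture (blue). Error bars are the SD over the arrays of a pool (3, but 2 for insulin in hour 3), and the grey band marks hours 1 and 2. Hes1, Klf10 and Nfkbia peak in hour 2, Irs2 stays low with insulin from hour 2, and Pdk4 is higher in the control culture than with insulin from hour 2.

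The letters did not move alike in size. In 9 of the 9 fallen genes the fall was smallest in letter b, and in 7 of the 9 it was largest in letter c. In Ccn2 the changes were nearly equal, at -0.24, -0.22 and -0.23 in letters a, b and c. The same ranking was not counted over all genes tested, so it cannot be called a trait of the fallen genes. Across all 11577 genes the changes of letters a and b correlated at 0.18, those of b and c at 0.17 and those of a and c at 0.0042, a description across genes that share arrays. Leaving out letter a, b or c left 3, 8 and 3 genes that passed. Of the 14 genes, Klf10 and Spry2 still passed without letter a, Dusp1, Hes1 and Nfkbia without letter c, and Klf10, Ddit4, Dusp1, Ccn1, Cited2, Edn1 and Amotl2 without letter b. All 14 kept their direction in each case, which was fixed in advance because each had 1 sign in all 3 letters. Without the block for the letter, 1 gene, Nfkbia, passed over the 53 arrays. The fit of these 6 arrays alone, with the letter as a block, passed 77 genes, 35 higher (0.302% of the genes tested) and 42 lower (0.363%), and these include all 14. Among the genes added by that fit were Cxcl1, Dusp6, Egr1, Ptgs2, Id3, Spry1, Hbegf and Inhba on the lower side and Txnip, Bhlhe41, Arrdc4 and Atf3 on the higher side.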

How the data were processed

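Per the labels and the paper's methods, RNA of hourly pools of 3 samples was hybridised to Affymetrix arrays, and the authors subtracted background, applied quantile normalization and summarized probes with RMA (versions are not given in the sources used here). What they deposited is on the log2 scale and covers 31099 probe sets. Each array was mapped to culture, hour and letter from its labels. The 21958 probe sets with the highest mean were tested, the 57 control probe sets excluded. Of these 16272 carry 1 symbol in the platform annotation, and the brightest of each gene makes 11577 genes.

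Each culture and hour had its own mean in a linear model (limma 3.58.1, R 4.3.3) over 53 arrays in 18 groups, with the letter within each culture as a block and a variance that follows the level. P-values are two-sided and adjusted by Benjamini-Hochberg over all tested probe sets (threshold 0.05). The code was tested on simulated data with independent noise and no differences between letters, so that test does not bear on the choice of block. Letters pair the arrays, since they mark repeats on different days: deviations from the group means of same-letter arrays of hours 1 and 2 correlated at 0.811, 0.757 and 0.771 (insulin, letters a, b and c). Between insulin and control arrays of a letter they correlated at 0.490, 0.274 and 0.632 in hour 1. In hour 2 these values were 0.721, 0.356 and 0.675, so the pairing of the cultures was weakest in letter b. The letters are whole repeats of 1 cell line, and the block takes out their differences in level. The p-values rest on the spread left after that, pooled over all hours and both cultures. A gene therefore has the same SE in both cultures (0.21 for Dusp1), and this SE is not the spread of its own 3 changes. Precision is limited by how few arrays there are.

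The comparison, the 32 gene lists and the rule for named genes (up to 15 risers and 15 fallers that passed with 1 sign in all letters, up to 4 members that passed or the 2 largest of each list, the 3 largest differences between cultures, and 15 set genes) were chosen with earlier results of these data known. Alternatives were other sets of arrays, blocks, filters and centring, 1 letter left out, and the mean of all probe sets of a gene. Promoter sequences came from RefSeq (GRCr8).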

Additional observations from a re-analysis of the deposited data

Results flagged for a closer look

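In 2 of the 73 named genes every letter of the insulin culture moved one way from hour 1 to hour 2 and every letter of the control culture the other way, as in 211 (1.82%) of the 11577 genes tested. Gabarapl1, an autophagy gene, changed by -0.1186 with insulin and by 0.1195 in control, a difference of -0.2381. Rpl22, a ribosomal protein, changed by -0.0963 and by 0.06213, a difference of -0.1584. Its control changes were 0.174, 0.0046 and 0.0080 in letters a, b and c, so that letters b and c hardly moved. The test of the difference between the cultures had an adjusted p of 1 for each by limma.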

How the results depend on the processing

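The number of genes that passed in the insulin culture, 14 with the replicate block over 53 arrays, was 77 with the 6 arrays and the replicate block, 36 (chosen after seeing the data) with the 12 arrays of hours 1 and 2 of both cultures and the block, 2 with letter and hour as a random block, 1 with 53 arrays and no replicate block, and 0 with 6 arrays and no replicate block. Without 1 letter it was 3 to 8. The 24 genes of the control culture became 94 with its 6 arrays and the block, 6 without a block, and 9 to 28 without 1 letter (28, 9 and 14 without a, b and c). The 0 genes whose change differed between the cultures became 12 with the 6 differences of hours 1 and 2. With 26 insulin arrays 17 genes passed, 11 of them among the 14, with Edn1, Irs2 and Mylip lost at adjusted p of 0.052, 0.056 and 0.075 by limma. Removing the filter, testing only the brighter probe sets, centring arrays, dropping the variance trend, adjusting over genes alone, the mean of probe sets and splitting letter b into 2 blocks (chosen after seeing the data) gave 13 to 16 genes. No change that passed turned its direction under any alternative run, but most of these runs could not have turned it. Other sets of arrays, other blocks and the variance trend leave the estimated change as it is. Leaving out 1 letter cannot turn a change that has 1 sign in all 3 letters. With 3 letters and a median SE of 0.104, changes of small size cannot be seen, and values of a pool of 3 harvests hide changes within the hour.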
